A study of Mus musculus with 2 samples.

Results

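The transcription factors that set the myeloid lineages were followed in macrophages grown from mouse bone marrow: Spi1, Cebpa, Cebpb, Cebpd and Maf as factors of macrophages, Cebpe and Gfi1 as factors of granulocytes, and Runx1 and Myb as factors of progenitors. These groups are not exclusive, since C/EBP-alpha, for one, also has neutrophil genes among its targets. The 9 genes were listed by symbol, with earlier results of these data known, and all 9 were found, each with 1 probe set, among the 19505 genes named on the array. Marrow cells of both genotypes were cultured in serum-containing medium with the macrophage growth factor M-CSF, given at 25 ng/mL on day 0 and day 3, and were used from day 5. The group called LysM(+) here has the genotype LysM (+);MC4RTB/TB, and the group called TB/TB has the genotype MC4RTB/TB, so both carry the TB allele of MC4R, the melanocortin 4 receptor, on both copies. In background terms, a TB allele is known as a transcription block that Cre recombinase can remove, and the lysozyme gene LysM is a usual driver of Cre for macrophages and neutrophils; the labels spell out neither. The sources used here give no age, sex or number of animals for a culture. The comparison addresses how macrophages of these genotypes differ. Whether a block was removed in the LysM(+) culture was not tested.

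Macrophages arise from marrow progenitors through an ordered set of transcription factors. RUNX1 and MYB act in stem and progenitor cells, and MYB normally falls as cells mature. PU.1, the product of Spi1, works with C/EBP factors to open macrophage genes such as the M-CSF receptor gene, MAF factors support the mature, non-dividing macrophage, and C/EBP-epsilon and GFI1 direct cells towards granulocytes, in part by GFI1 repressing macrophage genes.

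Each group had 1 array, so no test, standard error or p-value is given and every difference describes these 2 arrays only. Values are deposited RMA values on the log2 scale, which depend on the probes, so levels of different genes were not compared. All differences are LysM(+) minus TB/TB. A gene was counted as higher or lower when its arrays were 1.5-fold or more apart and the brighter value was at or above 6.12, called the floor, which is the median brightness over named probe sets. The 23 background control probe sets, which match no transcript, ran from 3.09 to 6.81, so a value in that range cannot be told from background. That range is a spread between different controls: no control differed by more than 0.09 between the arrays. The cultures carried the macrophage label in their values: 12 of 12 measured macrophage marker genes, among them Adgre1 (F4/80; 17.01 in LysM(+) and 17.24 in TB/TB) and Csf1r (the M-CSF receptor; 17.69 and 17.89), lay above the background controls on both arrays, and 0 of the 12 were 1.5-fold apart, with a median difference of -0.16. Over all genes, 41.5% lay above the controls on both arrays, and only 13.5% of those were at least 1.5-fold apart. The macrophage marker gene that differed most was Mertk, an apoptotic cell receptor, at -0.57.

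The listed factors of macrophages lay above background and were nearly equal in both cultures. The listed factors of granulocytes, Cebpe and Gfi1, were within the background range. This contrast follows the listing only: Cebpa, whose product also acts on neutrophil genes, was above background. Spi1, Cebpa, Cebpb, Cebpd, Maf and Runx1 were above the highest background control on both arrays, and their differences lay between -0.12 and 0.24, at most 1.18-fold. Of the 6, 3 were higher and 3 lower in LysM(+). Cebpe, Gfi1 and Myb were within the background range on both arrays. Over all genes, 55.4% were in that range on both arrays and 41.5% were above it on both. Of 11 other granulocyte factors measured, 5 were in that range on both arrays. Of the 9 genes, 8 reached the floor, 0 were at least 1.5-fold higher and 1, Gfi1, was at least 1.5-fold lower. Across all 10137 genes at or above the floor, the share higher by 1.5-fold or more was 10.9% and the share lower 5.16%, 16.1% in all, against 12.5% of the 8 factors, so the share of factors counted was not far from that of genes in general. The median difference of the 9 was 0.05, beside -0.0062 over all genes. That of the 8 that reached the floor was 0.02, beside 0.07 over the genes at or above the floor.

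**Figure D1:**
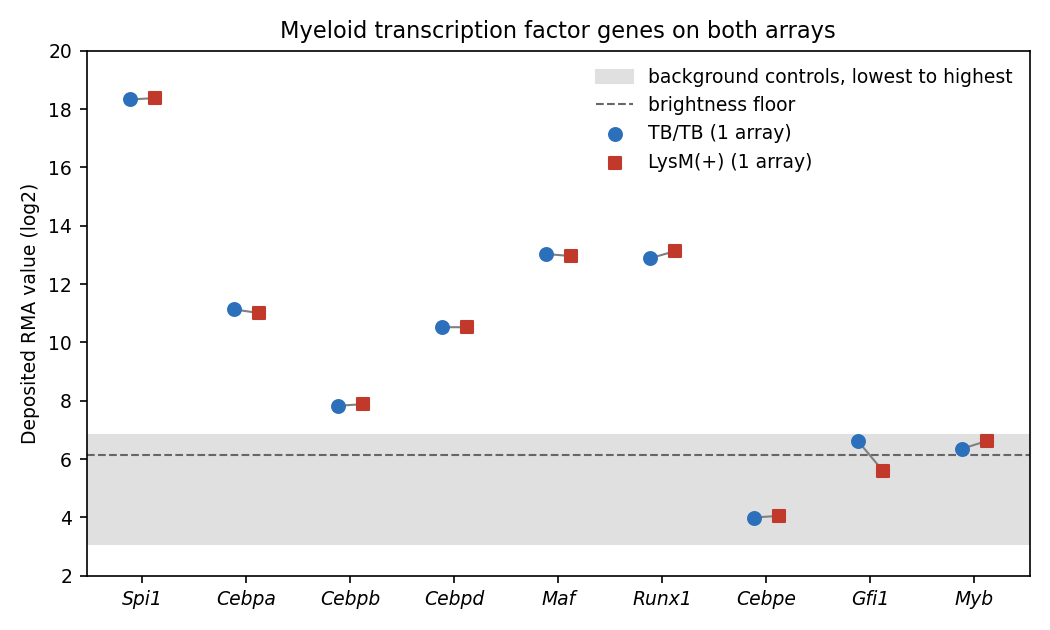
Deposited RMA values (log2, y axis) of the 9 transcription factor genes on the TB/TB array (circles) and the LysM(+) array (squares), 1 array each, with the brightness floor (dashed line, 6.12) and the range of the background controls (grey, 3.09 to 6.81). The paired points of Spi1, Cebpa, Cebpb, Cebpd, Maf and Runx1 nearly coincide above the grey band, while Cebpe, Gfi1 and Myb lie inside it and only the points of Gfi1 are clearly apart.

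Spi1, which encodes PU.1, the ETS factor required for the macrophage lineage, was read at 18.38 in LysM(+) and 18.33 in TB/TB. These values differed by 0.05, or 1.03-fold. The scale of these arrays ended at 19.51, and whether the probe set was saturated was not tested, since no scanner intensities were used here.

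The ETS relatives of Spi1 did not all share that near equality. Spic, which encodes the PU.1-related factor of iron-recycling macrophages, was 1.54-fold lower in LysM(+) (8.91 and 9.53), whereas Spib, the PU.1-related factor of B cells, was in the background range on both arrays (5.76 and 5.52). Ets2, a factor that acts downstream of growth factor and RAS signalling, was 2.96-fold higher in LysM(+) (8.32 and 6.76), with its TB/TB value inside the background range, so its fold is not exact. In all, 1 of the 11 measured ETS genes was higher and 1 lower, and the median difference was 0.05. The others at or above the floor lay between Elf4 at -0.33 and Gabpa at 0.35, and Fli1, Etv6, Elf1 and Ets1, which act broadly in blood cells, differed by -0.06, -0.03, -0.12 and 0.09. Erg, a stem cell factor of this family, was below the floor on both arrays (5.46 and 5.01).

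Known target genes of PU.1 in macrophages were also close between the arrays. Of all genes above the background controls on both arrays, only 13.5% were at least 1.5-fold apart. Of 14 targets measured, all above those controls on both arrays, 0 were 1.5-fold higher and 0 lower, and their median difference was -0.02. They included Itgam, the CD11b integrin chain (15.54 and 15.30), Fcer1g, the signalling chain of Fc receptors (18.20 on both arrays), Cybb, the catalytic subunit of the phagocyte oxidase (17.80 and 17.88), and Tlr4, the lipopolysaccharide receptor (13.60 and 13.69). The extremes were Msr1, a scavenger receptor, at 0.42 and Fcgr3, an Fc receptor, at -0.38. These gene lists were drawn up from general knowledge with earlier results of these data known.

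The C/EBP factors bind the same DNA sites as dimers, and each acts at its own stage. Cebpa, needed for the first step from progenitor to myeloid cell, had values of 11.01 in LysM(+) and 11.13 in TB/TB, a difference of -0.12. Cebpb, which drives inflammatory and emergency gene programmes, had values of 7.88 and 7.83, a difference of 0.05. Cebpd, an early response gene of the acute phase, had values of 10.52 on both arrays, with a difference of -0.0027, the smallest of the 9 and one whose sign turned to 0.0035 when the arrays were centred on the median difference of all genes. Of the 10137 genes at or above the floor, 74.6% differed by more than Cebpa did, 88.4% by more than Cebpb and 99.4% by more than Cebpd. None of the 3 was 1.5-fold apart.

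Cebpe, the C/EBP factor of late granulocyte development and of secondary granule genes, had values of 4.05 and 3.99. Both were below the floor and inside the background range, so the difference of 0.06 describes background-level signal, and expression of Cebpe was not detectable on either array. The remaining relatives were also less than 1.5-fold apart: Cebpg, a C/EBP partner without an activation domain, differed by -0.06 and Ddit3, the stress-induced C/EBP relative CHOP, by -0.30. Counting all 6 measured genes of the family, 5 reached the floor, 0 were higher, 0 were lower and the median difference was -0.03.

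Genes known as C/EBP targets in macrophages were more spread than the C/EBP genes. Of 11 measured, 8 reached the floor, 3 were at least 1.5-fold higher and 1 lower. The shares over all genes at the floor were 10.9% and 5.16%. The median difference of the 11 was 0.39, beside -0.0062 over all 19505 genes. It is the value of Ptgs2, which was inside the background range on both arrays (6.125 and 5.734), so it is not exact. Over the 8 it was 0.41, beside 0.07 over all genes at the floor. Tnf, the inflammatory cytokine, was 2.43-fold higher in LysM(+) (11.47 and 10.19), Hp, the acute-phase protein haptoglobin, 1.57-fold higher and the anti-inflammatory cytokine gene Il10 1.56-fold higher (8.49 and 7.85), a difference that fell short of 1.5-fold with the loess correction for brightness. Saa3, an acute-phase gene, was 1.63-fold lower (7.17 and 7.88). Il6, Arg1 and Csf3 were below the floor on both arrays. Several of these genes are also regulated by other factors, and the list mixes inflammatory and granule genes.

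Maf, which encodes c-MAF, a factor of mature tissue-type macrophages and of Il10, had values of 12.96 in LysM(+) and 13.03 in TB/TB, a difference of -0.07. Its family gave no gene past 1.5-fold: of 6 measured, 3 reached the floor, 0 were higher and 0 lower, and the widest difference was that of Mafk, a small MAF that lacks an activation domain, at -0.38 (6.21 and 6.59, both inside the background range). Mafg, another small MAF, differed by 0.23 (8.19 and 7.96). Mafa, Maff and Nrl were below the floor on both arrays.

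Of 8 genes listed as MAF targets, 2 were at least 1.5-fold higher in LysM(+) and 0 lower, with a median difference of 0.06. Folr2, the folate receptor of resident-type macrophages, was 2.15-fold higher (15.38 and 14.28), and Il10 was the second. The complement genes C1qa, C1qb and C1qc differed by 0.12, -0.04 and 0.06, the mannose receptor gene Mrc1 by -0.17, the haemoglobin scavenger receptor gene Cd163 by 0.06 and the clotting factor gene F13a1 by -0.40.

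**Figure D2:**
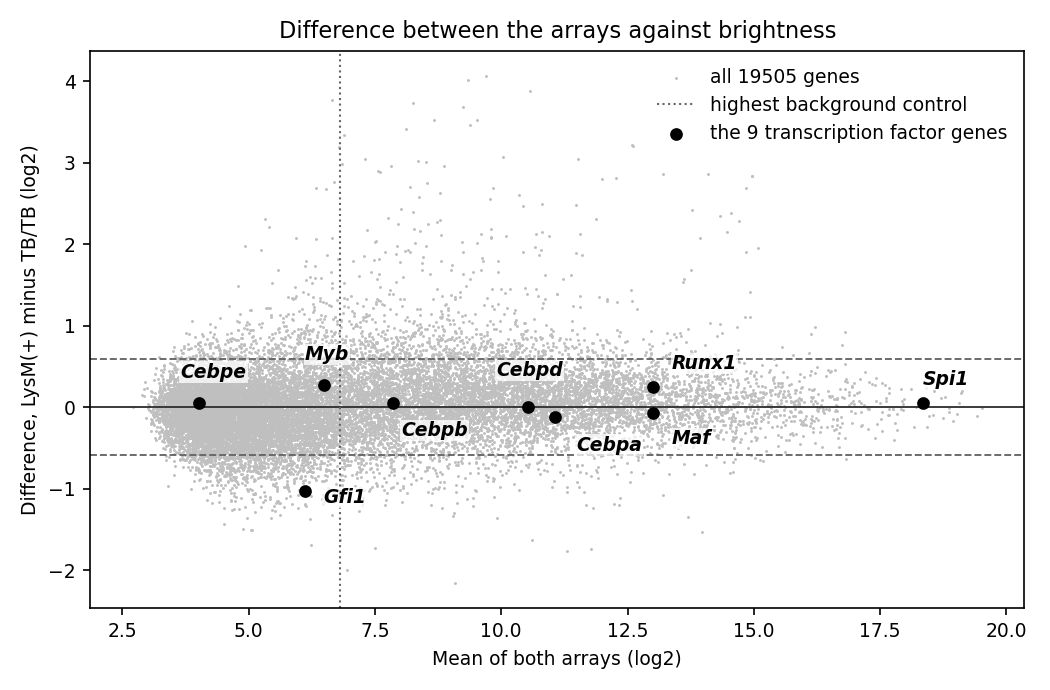
Difference between the arrays (LysM(+) minus TB/TB, log2, y axis) against the mean of both arrays (log2, x axis) for all 19505 genes (grey), with the 9 transcription factor genes in black, 1.5-fold marked by dashed lines and the highest background control by a dotted line. Spi1, Cebpa, Cebpb, Cebpd, Maf and Runx1 lie close to 0 to the right of the dotted line, and Gfi1, at -1.03, lies below the lower dashed line to the left of it.

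Runx1, the core-binding factor subunit that founds the blood lineages and stays on in macrophages, had the widest difference among the 6 factors above background. Its values were 13.12 in LysM(+) and 12.88 in TB/TB, a difference of 0.24, or 1.18-fold. That is an ordinary size for these arrays: 49.7% of the 8096 genes above the background controls on both arrays differed by more, and 13.5% of them were at least 1.5-fold apart. Cbfb, the shared partner that stabilises RUNX proteins on DNA, was 1.60-fold higher in LysM(+) (10.14 and 9.46); it fell short of 1.5-fold with the same loess correction. Runx3 (5.38 and 5.08) and the corepressor genes Runx1t1 (5.80 and 5.97) and Cbfa2t3 (3.84 and 3.71) were below the floor on both arrays. Of the 5 measured genes of this group, 1 was higher and 0 lower, and the median difference was 0.24.

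Runx1 is known to be transcribed from a distal and a proximal promoter that give proteins with different starts, and its single probe set gives 1 value for the gene. The 250 bases before each start site are shown, from RefSeq (GRCm38.p6, minus strand, 5′ to 3′), because which of them the probe set reads is not known here. Capitals mark matches, on either strand, to the core letters of the factors described here: GAGGAA for PU.1, TTGCNNAA for C/EBP, TGTGGT for RUNX, AACGG for MYB, TGCTGA for MAF and AATCAC for GFI1, the last added with the data at hand.
Runx1 first start site, chr16:92826075-92826324: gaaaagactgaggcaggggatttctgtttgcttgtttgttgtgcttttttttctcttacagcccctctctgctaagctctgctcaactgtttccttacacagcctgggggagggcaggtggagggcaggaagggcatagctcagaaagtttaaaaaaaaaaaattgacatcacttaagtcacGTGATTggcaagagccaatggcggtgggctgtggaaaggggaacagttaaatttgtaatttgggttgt
Runx1 second start site, chr16:92697330-92697579: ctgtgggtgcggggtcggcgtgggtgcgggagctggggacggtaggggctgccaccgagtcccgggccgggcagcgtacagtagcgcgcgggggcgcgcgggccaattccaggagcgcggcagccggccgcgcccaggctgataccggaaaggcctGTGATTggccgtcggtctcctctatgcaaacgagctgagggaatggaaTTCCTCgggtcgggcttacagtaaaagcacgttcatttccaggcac
The capitals in the first are the GFI1 letters on the opposite strand. In the second they are the GFI1 letters, then the PU.1 letters, both on the opposite strand, the latter ending 41 bases before the start. Among 32851 mouse promoters of this length, 9.14% held the GFI1 letters and 23.3% the PU.1 letters, so a match is a description and not a site in use.

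Myb, which keeps progenitors immature and dividing, had values of 6.62 in LysM(+) and 6.35 in TB/TB, both above the floor and inside the background range. The difference of 0.27, or 1.20-fold, was exceeded by 48.6% of the genes at or above the floor. Both of its relatives were higher in LysM(+), from background-level signal. Mybl1 was 2.55-fold higher (6.46 and 5.10) and counted, while Mybl2, which encodes B-MYB, a partner of the complex that switches on mitotic genes, differed by 1.22 (6.03 and 4.81) but was below the floor on both arrays and was not counted. All 3 genes of the family lay inside the background range on both arrays, and no fold among them is exact.

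Cell division genes were higher on the same array as these MYB relatives: 11 of 11 measured were 1.5-fold or more higher in LysM(+). They were Mki67, Top2a, Ccna2, Ccnb2, Cdk1, Plk1, Ube2c, Rrm2, Pcna, Mcm2 and Mcm5. Their median difference was 3.34, from Pcna at 0.90 to Ube2c at 4.06. The median is the value of Cdk1, which was below the floor in TB/TB (5.22), and the TB/TB values of Ccna2 and Top2a (6.40 and 6.75) were also inside the background range, so the median is not exact. Whether the number of dividing cells bears on Mybl1, Mybl2 or Cbfb was not tested. In a bulk culture, more cells of a kind and more RNA per cell cannot be told apart.

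Genes known as MYB targets in progenitors were in part at background level. Of 10 measured, 6 lay inside the background range on both arrays and 6 reached the floor. At least 1.5-fold higher were 3 and lower was 1, beside 10.9% and 5.16% of all genes at or above the floor. The median difference was 0.06 over the 10 and 0.47 over the 6 that reached the floor. Myc, the growth factor-driven regulator of cell growth, was 3.07-fold higher in LysM(+) (12.18 and 10.57), the survival gene Bcl2 1.82-fold higher (8.59 and 7.72) and the neutrophil elastase gene Elane 2.26-fold higher (7.64 and 6.46, the latter inside the background range). The gene counted as lower was Gfi1 itself, with both values inside the background range. The progenitor receptor genes Kit (5.41 and 5.56), Cd34 (5.27 and 5.72) and Flt3 (3.87 and 3.77) were below the floor on both arrays.

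Progenitor genes were below the floor about as often as genes in general, of which 48.0% were below it on both arrays. Of 9 measured surface genes, 5 were below the floor on both arrays, 0 were higher and 1 lower, with a median difference of -0.25. The gene counted was Csf2rb, the chain shared by the receptors for GM-CSF, IL-3 and IL-5 and also used by macrophages, which was 1.70-fold lower in LysM(+) (10.35 and 11.11). Of 19 other progenitor and stem cell factors, 10 were below the floor on both arrays, 1 was higher (Myc), 0 were lower, and the median difference was 0.01. Lyl1 (11.91 and 12.07), Lmo2 (10.18 and 10.08) and Ikzf1 (13.51 and 13.36), which mature myeloid cells also express, were bright and differed by -0.16, 0.10 and 0.15. Gata2, Hlf, Mecom and Sox4, factors of stem cells and early progenitors, were below the floor on both arrays.

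Gfi1, the repressor that favours granulocytes over macrophages, was the factor with the widest difference. It was read at 5.60 in LysM(+) and 6.62 in TB/TB, a difference of -1.03, or 2.04-fold lower. The LysM(+) value was below the floor, and both values were inside the range of the background controls. The brighter value lay, as that of Gfi1 did, between the floor and the highest background control in 1432 genes. Of these, 10.5% were at least 1.5-fold lower and 8.17% at least 1.5-fold higher, a smaller size than the 2.04-fold of Gfi1. Of all genes at or above the floor, 3.84% differed by more than Gfi1 did. With the highest background control as the floor, Gfi1 was no longer counted and 0 of the 9 factors were. Its difference stayed between -1.03 and -0.96 under the other scalings.

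Gfi1b, the GFI1 relative of red cells and platelets, differed the other way: it was 1.69-fold higher in LysM(+) (7.40 and 6.64), the TB/TB value again inside the background range. The corepressors through which GFI1 acts were above background and not 1.5-fold apart: Kdm1a, the histone demethylase LSD1, differed by 0.41 (8.99 and 8.58), the histone deacetylase genes Hdac1 and Hdac2 by 0.52 and 0.07, and the scaffold gene Rcor1 by 0.13. Hmg20b, a further subunit, differed by -0.10, and Rcor2 was below the floor on both arrays. Over the 8 genes of this group, 1 was higher, 1 lower, and the median difference was 0.10.

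The Gfi1 promoters are shown because Gfi1 was the one factor past 1.5-fold and RefSeq lists 2 start sites for its 1 probe set (GRCm38.p6, minus strand, 5′ to 3′, 250 bases before each start; capitals mark matches to the letters given for Runx1).
Gfi1 first start site, chr5:107725806-107726055: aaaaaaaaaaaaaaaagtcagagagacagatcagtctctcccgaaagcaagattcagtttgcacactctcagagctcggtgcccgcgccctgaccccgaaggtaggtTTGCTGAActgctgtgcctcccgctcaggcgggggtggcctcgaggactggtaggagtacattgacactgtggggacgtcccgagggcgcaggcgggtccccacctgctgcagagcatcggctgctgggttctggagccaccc
Gfi1 second start site, chr5:107724344-107724593: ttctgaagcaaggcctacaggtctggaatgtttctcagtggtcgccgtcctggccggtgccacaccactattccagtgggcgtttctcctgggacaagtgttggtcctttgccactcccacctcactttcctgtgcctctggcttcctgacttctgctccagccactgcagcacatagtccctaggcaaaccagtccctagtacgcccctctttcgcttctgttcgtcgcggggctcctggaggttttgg
In the first, the capitals are a C/EBP match, TTGCTGAA, which holds the MAF letters TGCTGA within it, so these 2 matches are the same stretch. The second start site had no match (0). The C/EBP letters were in 9.56% of the 32851 promoters, the MAF letters in 16.1%, the RUNX letters in 14.0% and the MYB letters in 14.5%. Promoters were matched by symbol for 5 of the 9 genes, at 7 start sites; those of Spi1, Cebpd, Cebpe and Maf were not used here. The promoter of Cebpa had 1 match, to the MYB letters on the opposite strand from 64 to 60 bases before the start, and those of Cebpb and Myb had 0.

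**Figure D3:**
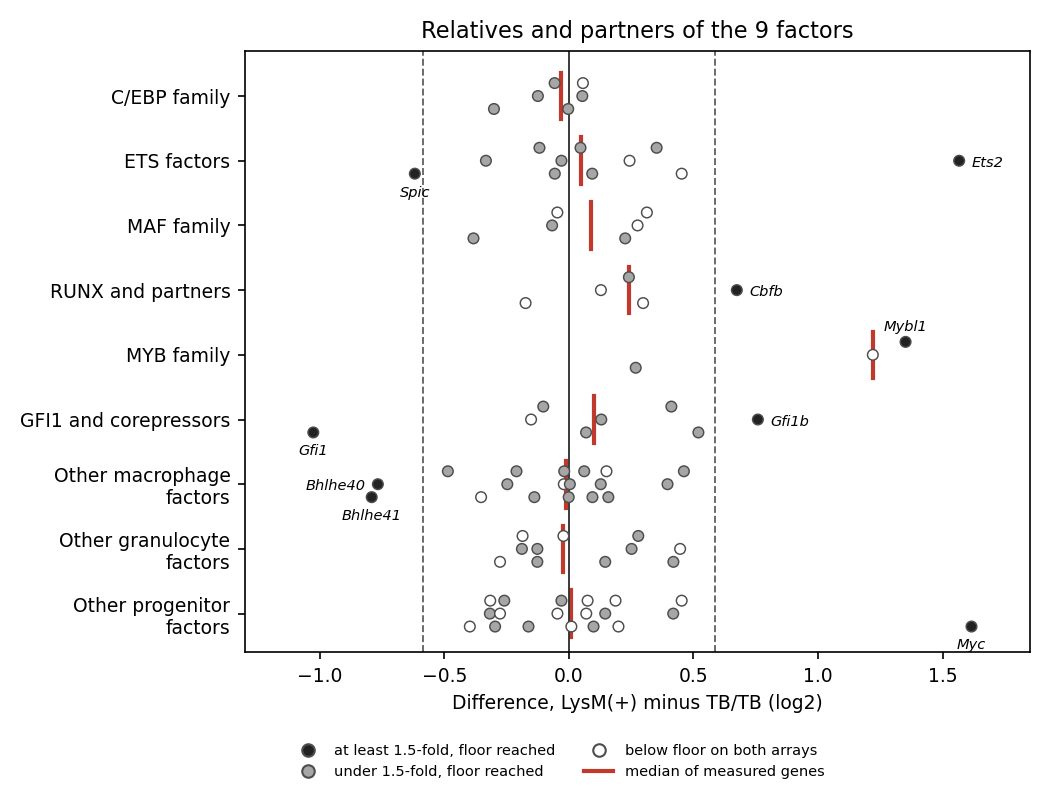
Differences between the arrays (LysM(+) minus TB/TB, log2, x axis) for the families and partners of the 9 factors and for other lineage factors, 1 point per gene, with the median of measured genes as a red bar and 1.5-fold as dashed lines. Most genes lie between the dashed lines; Ets2, Cbfb, Mybl1, Gfi1b, Myc and, below the floor, Mybl2 lie to the right and Spic, Gfi1, Bhlhe40 and Bhlhe41 to the left.

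The other regulators of these lineages were counted about as often as genes in general. Leaving out the 9 factors, 74 were measured and 49 reached the floor, of which 5 were higher and 3 lower, 16.3% in all against the 16.1% of genes. Among 18 other macrophage and monocyte factors, 0 were higher and 2 lower, with a median difference of -0.0097: the paired repressor genes Bhlhe40 and Bhlhe41, which support macrophage self-renewal, were 1.70-fold lower (10.46 and 11.22) and 1.73-fold lower (11.17 and 11.96) in LysM(+). Irf8, the partner of PU.1 in monocyte development, differed by -0.21 (10.58 and 10.79), Pparg, the lipid-sensing nuclear receptor, by 0.16, Nr1h3, the oxysterol receptor LXR-alpha, by -0.14, and Mitf, a lysosome and osteoclast factor, by 0.40. Klf4, a monocyte factor, was below the floor on both arrays (5.06 and 5.08). Among 11 other granulocyte factors, 4 were below the floor on both arrays, 0 were higher, 0 lower, and the median difference was -0.02. Trib1, which promotes the degradation of C/EBP-alpha, differed most among those at the floor, at 0.42 (6.52 and 6.10), and Stat3, which carries the G-CSF signal, by -0.13.

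Neutrophil genes, many of them targets of C/EBP-epsilon and C/EBP-alpha, were higher in LysM(+) in part, while Cebpe and Gfi1 were at background level. Of 14 measured granule and late neutrophil genes, 3 were below the floor on both arrays and 11 reached it. Of those 11, 5 were at least 1.5-fold higher and 0 lower, beside 10.9% and 5.16% of all genes at the floor. The median difference was 0.41 over the 14 and 0.51 over the 11, beside 0.07 over all genes at the floor. Ltf, the secondary granule protein lactoferrin, was 2.60-fold higher (9.69 and 8.31), Retnlg, a neutrophil resistin-like gene, 2.50-fold (7.62 and 6.29, the latter inside the background range, so the fold is not exact), and Mmp8, neutrophil collagenase, 1.98-fold (9.23 and 8.25). Mmp9 and Cxcr2 were 2.21-fold and 1.63-fold higher with both values inside the background range. Ngp, another secondary granule gene, differed by 0.40 (16.32 and 15.92), the calprotectin genes S100a8 and S100a9 by 0.29 and 0.51, and Csf3r, the G-CSF receptor gene, by -0.57 (12.65 and 13.22). Of 5 genes of the early granules, Elane was the 1 counted as higher and 0 were lower. Mpo, myeloperoxidase, was the other way at -0.30 (9.99 and 10.29), and Prtn3 and Ctsg were below the floor on both arrays. The median of the 5, -0.02, is the value of Prtn3 and so describes background-level signal. Over the 3 early granule genes that reached the floor it was 0.07. The list of late genes includes Lcn2, which macrophages also make. Whether neutrophils or their precursors remained in the cultures was not tested.

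**Figure D4:**
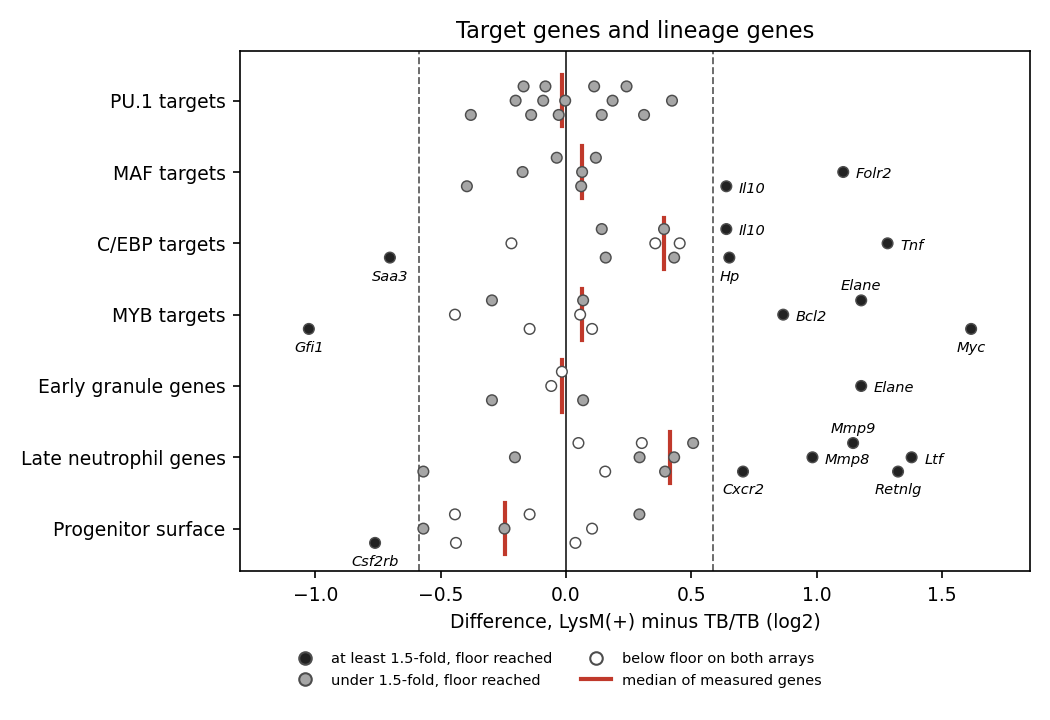
Differences between the arrays (LysM(+) minus TB/TB, log2, x axis) for known target genes of the factors and for neutrophil and progenitor genes, 1 point per gene, with the median of measured genes as a red bar and 1.5-fold as dashed lines. The 14 PU.1 targets all lie between the dashed lines, while 5 late neutrophil genes and 3 MYB targets lie to the right of them.

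Genes of other cells that a marrow culture can hold were dim to different degrees. Over all genes, 55.4% were inside the background range on both arrays. Of 6 B cell genes, 6 were inside the background range on both arrays and 0 were 1.5-fold apart; the widest difference at the floor was that of Cd22, at -0.56. Of 8 T and NK cell genes, 7 were inside that range, 0 were 1.5-fold apart, and the exception was Cd4 (9.97 and 10.19); Cd2 differed most at the floor, at -0.41. Of 7 dendritic cell genes, 5 were inside the background range, 0 were 1.5-fold apart, and Siglech differed most at the floor, by -0.18. Of 9 mast cell, basophil and eosinophil genes, 1 was higher, the eotaxin receptor gene Ccr3 at 2.28-fold (9.54 and 8.35), and 7 were inside the background range. Of 6 erythroid and megakaryocyte genes, 3 were inside the background range and 2 were higher, Ppbp and Pf4, chemokines stored in platelets, at 4.46-fold and 2.35-fold, while the lineage factor genes Klf1 and Gata1 were below the floor on both arrays. Of 7 stromal genes, 3 were inside the background range and 1 was lower, Col1a2 at 1.52-fold. Of 9 monocyte genes, 2 were inside the background range, and 1 was higher, the fractalkine receptor gene Cx3cr1 at 3.74-fold (9.15 and 7.25), 0 were lower and the median difference was 0.36. The part of any such cells in the differences above was not tested.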

How the data were processed

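RNA from 2 cultures, 1 per genotype, was hybridised to 1 array each. The authors deposited log2 values per probe set made with RMA (background correction, normalization between arrays, probe summary); per the submitters' processing notes this was run in Affymetrix Expression Console. Versions and genome build: not given in the sources used here. Base 2 was read from the name of the method; values reached 19.51, higher than usual for RMA, so every fold rests on that reading. Of 28846 probe sets, 19572 carried a gene symbol, all matched by Entrez ID to the RefSeq table of GRCm38.p6, used for names; 55 genes had several probe sets, which were averaged. Counting used 1.5-fold and the floor of 6.12 (Python 3.11.15, pandas 2.3.3, statsmodels 0.14.6). The counting code was run on simulated data whose planted differences were far beyond 1.5-fold. That run does not show how the rule performs near 1.5-fold. Groups came from the genotype label. The 9 genes and 25 other lists (218 further genes, 195 measured) were chosen with earlier results of these data known. Named are the 9 factors, their families, every listed gene counted and, for lists with none, the gene that differed most at the floor; others were chosen after their values were seen. Alternatives were centring, quantile normalization, loess (span 0.4), the brightest probe set, no floor, the highest background control as the floor and a 2-fold threshold.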

Additional observations from a re-analysis of the deposited data

How the results depend on the processing

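With 1 array per group no array could be left out and no paired analysis was possible. Centring, quantile normalization, loess and the brightest probe set left the 6 factors above background under 1.5-fold and Gfi1 lower by at least 1.5-fold. Only Cebpd moved by more than 0.1, to -0.10 with quantile normalization, still far from 1.5-fold. With the highest background control as the floor, 0 of the 9 factors were counted as lower, in place of 1, because Gfi1 was left out. With a 2-fold threshold, 0 genes of the other lists were lower in place of 6, and among the other regulators 3 were higher and 0 lower in place of 5 and 3. Loess took Cbfb and Il10 under 1.5-fold, and with loess or quantile normalization Csf3r and Mertk were counted as lower and Treml4 as higher. Mybl1, Mmp9 and Cxcr2 were not counted with the highest background control as the floor. The medians of the other lists moved by at least 0.1 in 9 cases, most of them with that floor. It took MYB targets to 1.02, early granule genes to 0.44, the RUNX group to 0.46 and the GFI1 group to 0.27. Mast cell, basophil and eosinophil genes went to 0.72, erythroid and megakaryocyte genes to 1.23, progenitor surface genes to -0.41 and stromal genes to -0.16. Quantile normalization took the GFI1 group to -0.0029. Signal over background limits Cebpe, Gfi1 and Myb.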
